A study of Homo sapiens with 6 samples.

Results

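The kidney lineage transcription factors described here are 7 genes, PAX2, PAX8, HNF4A, LHX1, WT1, GATA3 and EMX2, taken by gene symbol from a table of 60708 genes. All 7 had a row, and 3 of them (PAX8, LHX1 and GATA3) reached 10 reads in at least 1 sample and were among the 17401 genes tested. The other 4 did not reach it in any sample. The study sequenced RNA from Caki-1 cells, a human clear cell renal carcinoma line, as 3 vector control (VC) samples and 3 VHL knockout (VHL-KO) samples. VC cells carried the WT genotype label. The paper names a control lentivirus, from a CRISPR vector, where it describes double and triple knockouts, but does not state which vector these VC cells received. VHL-KO cells had received a CRISPR lentivirus with a guide against VHL, the substrate receptor of the ubiquitin ligase that marks hypoxia-inducible factor alpha subunits for degradation. Infected cells were selected in puromycin, and the knockout cells were grown as a clonal line, so differences between a clone and its parent population cannot be told apart from the loss of VHL. The guide and the clone that gave the sequenced RNA are not given in the sources used here. Nothing states that the replicates were separate cultures, so p-values measure only the spread between these samples. Because each library is a bulk sample, fewer cells expressing a gene and less RNA per cell cannot be told apart.

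PAX2 and PAX8 are paired-box factors of the intermediate mesoderm and its nephric derivatives, LHX1 is a LIM homeobox factor of the nephric duct and early nephron, and EMX2 and GATA3 act in the nephric duct and ureteric bud. WT1 is required in nephron progenitors and stays on in podocytes, and HNF4A directs the differentiated program of the proximal tubule. PAX8 is used in pathology as a marker of renal epithelial tumors.

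The VC samples held 31789923, 28463579 and 34881739 counted reads, and the VHL-KO samples 29139722, 22805385 and 22628246. Levels are given as CPM, counts per 1000000 reads of a library size scaled by the trimmed mean of M-values (TMM). A sample with 0 reads of a gene allows a level of up to 3 counts, between 0.0790 and 0.141 CPM in these samples (counting error only). The epithelial keratins KRT8 and KRT18 and the intermediate filament gene VIM were the highest of 8 markers of epithelial or mesenchymal cells in VC cells, at 97.3, 133 and 1242 CPM per kilobase of exon. CDH1, the epithelial cadherin, had at most 3 reads in a sample, while the cadherin CDH2, counted here as a mesenchymal marker, had 1676 to 4489. Of 9 markers of blood, endothelial and fibroblast cells, 7 had fewer than 10 reads in every sample. The summed level of all 9, nearly all of it COL1A1, was 35.2, 36.7 and 29.5 CPM in VC and 28.5, 25.3 and 23.5 CPM in VHL-KO samples. Of the 2 tested, PECAM1 rose (1, 5 and 0 against 14, 7 and 9 reads), a call lost without VC replicate 3 and untested for want of reads without VHL-KO replicate 1, and COL1A1, the most abundant of the 9, fell 1.34-fold (log2 fold change -0.42, and -0.73 with offsets for GC content and length), and CD3E and LUM were at 0 in all 6 samples.

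VHL itself was read at 42.6, 37.8 and 40.1 CPM in VC samples and at 34.8, 30.4 and 30.5 CPM in VHL-KO samples. All 3 VHL-KO values lay below all 3 VC values, with a log2 fold change of -0.33 ± 0.108 (SE; edgeR quasi-likelihood test, Benjamini-Hochberg adjusted p = 0.0109), a call kept in 10 of 14 alternative analyses. It was lost with offsets for GC content and length (-0.09, adjusted p = 0.381), with upper quartile factors (-0.22, 0.0905), when VC replicate 1 was left out (-0.28, 0.0862) and when VHL-KO replicate 2 was (-0.30, 0.0621), all by edgeR and within a range of 0.000292 to 0.381 over the 14. A guide-directed lesion can leave the transcript in place, so the RNA level does not check the genotype. Of 8 genes known to be induced by hypoxia-inducible factors, 7 rose and 1, EGLN3, fell, beside 28.5% rising and 31.2% falling of all 17401 tested genes. NDRG1 went from 12.1, 11.1 and 11.7 CPM in VC to 728, 774 and 781 CPM in VHL-KO samples. CA9, a carbonic anhydrase of the cell surface, had 0, 0 and 2 reads in VC against 288, 247 and 233 after knockout, which is at least 124-fold higher against the floor. The median log2 fold change of the 8 genes was 2.22.

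Among the 7 factors, 4 were silent at this depth. PAX2, WT1 and EMX2 had 0 reads in all 6 samples. HNF4A had 0 reads in 5 samples and 1 read in VHL-KO replicate 1. No fold change is given for these 4 genes, since none had more than 1 read in a sample. The lowest count in a sample was 81 reads among the nearest tested protein-coding genes on the 2 sides of each of them. Genes with too few reads to be tested were passed over in choosing these neighbors. That the neighbors were read therefore follows from the choice, and cannot show whether the surroundings of the 4 genes were transcribed.

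PAX8 (ENSG00000125618.18; GRCh38, minus strand, chr2:113215997-113278921) was the highest of the 7 factors. It was read at 440, 459 and 384 CPM in VC samples and at 611, 601 and 629 CPM in VHL-KO samples. The groups did not overlap, as in 64.7% of all 17401 tested genes. The VC values spread more widely (mean 427 ± 38.8, SD, n = 3) than the VHL-KO values (614 ± 14.2). PAX8 rose 1.44-fold in VHL-KO cells (log2 fold change 0.52 ± 0.0879, SE; edgeR quasi-likelihood test, Benjamini-Hochberg adjusted p = 1.64e-05), and the log2 value was 0.33 with library size alone (adjusted p = 0.00104). Of its exonic bases, 22.4% also lie in the antisense gene PAX8-AS1, and without stated strand-specific counting, reads there cannot be assigned to one of the pair. PAX8-AS1 had 4.60, 5.42 and 5.42 CPM in VC and 6.44, 5.19 and 4.36 CPM in VHL-KO samples. These ranges overlapped and the change did not pass the test (log2 fold change 0.06 ± 0.188; edgeR, adjusted p = 0.811).

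Of the paired-box relatives PAX8 and PAX2, PAX8 was the most abundant factor and PAX2 had no read, so the 250 bases before the start of each are shown, from RefSeq (GRCh38.p14), 5′ to 3′ in the direction of transcription, with each CG dinucleotide in capitals. Entries were found for 6 of the 7 factors, with none for LHX1. The PAX8 stretch is chr2:113278922-113279171, minus strand, and the PAX2 stretch, from the first of its 2 windows, is chr10:100735146-100735395, plus strand.
PAX8: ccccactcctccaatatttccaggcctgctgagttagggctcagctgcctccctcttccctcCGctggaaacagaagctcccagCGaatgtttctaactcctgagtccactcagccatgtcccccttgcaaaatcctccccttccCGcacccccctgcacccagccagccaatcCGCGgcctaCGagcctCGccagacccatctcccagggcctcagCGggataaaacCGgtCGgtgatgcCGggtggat
PAX2: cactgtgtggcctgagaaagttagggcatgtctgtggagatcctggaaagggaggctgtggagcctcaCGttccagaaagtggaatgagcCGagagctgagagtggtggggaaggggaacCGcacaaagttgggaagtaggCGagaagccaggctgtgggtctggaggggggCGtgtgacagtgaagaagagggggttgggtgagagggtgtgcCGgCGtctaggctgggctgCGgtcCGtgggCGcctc
Both stretches were 61.6% G or C, above the median of 58.0% over 35116 promoter windows, and they held 11 and 10 CG dinucleotides, where the median was 11. The core letters of the hypoxia response element (ACGTG or GCGTG on either strand) occurred in neither strand of the PAX8 stretch. PAX2 held 2 matches, beginning 184 and 79 bases before the start, and the second PAX2 window, which is not shown, held 0. Some windows of WT1 and GATA3, also not shown, held matches too, and those of HNF4A and EMX2 held none. Of all windows of this length, 43.2% held at least 1 match.

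LHX1 (ENSG00000273706.5; GRCh38, plus strand, chr17:36936785-36944612) changed most. It was read at 56.0, 57.6 and 52.4 CPM in VC samples and at 15.9, 18.6 and 17.6 CPM in VHL-KO samples. Each VHL-KO value was far below every VC value. LHX1 fell 3.19-fold in VHL-KO cells (log2 fold change -1.67 ± 0.111; edgeR quasi-likelihood test, Benjamini-Hochberg adjusted p = 5.12e-12), and 806 of the 17401 tested genes (4.63%) had a log2 fold change as low or lower. Of its exonic bases, 7.47% also lie in an unnamed gene on the opposite strand.

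LHX1-DT, a long noncoding RNA transcribed away from LHX1 from a start 0.115 kb upstream, shares no exonic base with it. It was read at 22.6, 20.8 and 18.3 CPM in VC samples and at 11.7, 9.73 and 10.1 CPM in VHL-KO samples. Both transcripts were thus lower in every VHL-KO sample than in any VC sample, where 64.7% of all tested genes had groups without overlap in either direction. LHX1-DT fell by 1.95-fold (log2 fold change -0.96 ± 0.138; edgeR, adjusted p = 1.71e-06), and its log2 fold change was -1.55 with offsets for GC content and length.

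**Figure D1:**
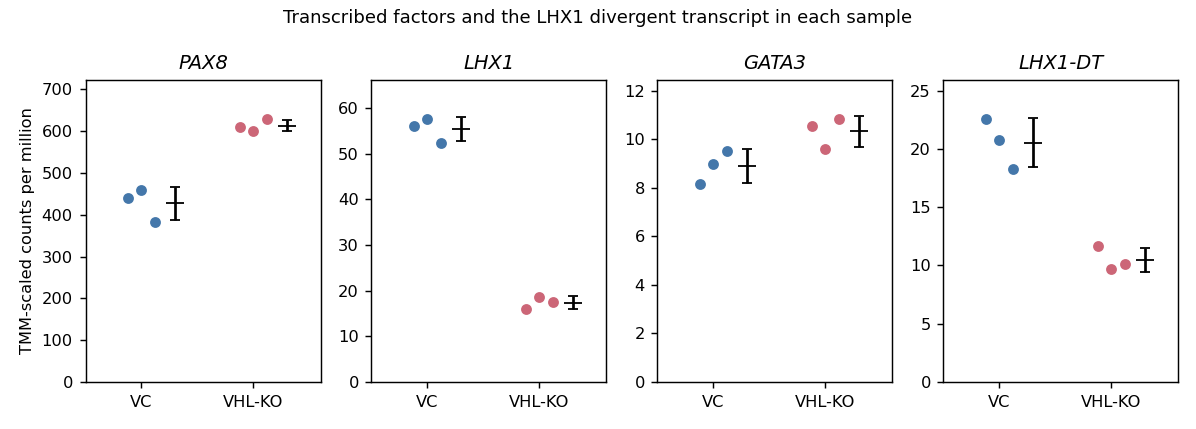
TMM-scaled CPM (vertical axes, each from 0) in the 3 VC and 3 VHL-KO samples for PAX8, LHX1, GATA3 and LHX1-DT. Points are samples, and the black marks are the group mean with 1 SD. LHX1 and LHX1-DT are lower and PAX8 is higher in all 3 VHL-KO samples, and the GATA3 groups almost touch.

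Within 1 Mb of LHX1, 17 other genes were tested, of which 11 fell, 1 rose and 5 did not pass (median log2 fold change -0.60). Over all tested genes 31.2% fell and the median was -0.01. With offsets for GC content and gene length, 8 of the 17 fell and 2 rose. AATF, the nearest tested protein-coding gene on the higher-coordinate side, changed by -0.41 ± 0.0903 on the log2 scale. MRM1, the nearest such gene on the other side, changed by -0.55 ± 0.125. What the neighborhood of LHX1 has to do with its change was not tested.

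**Figure D2:**
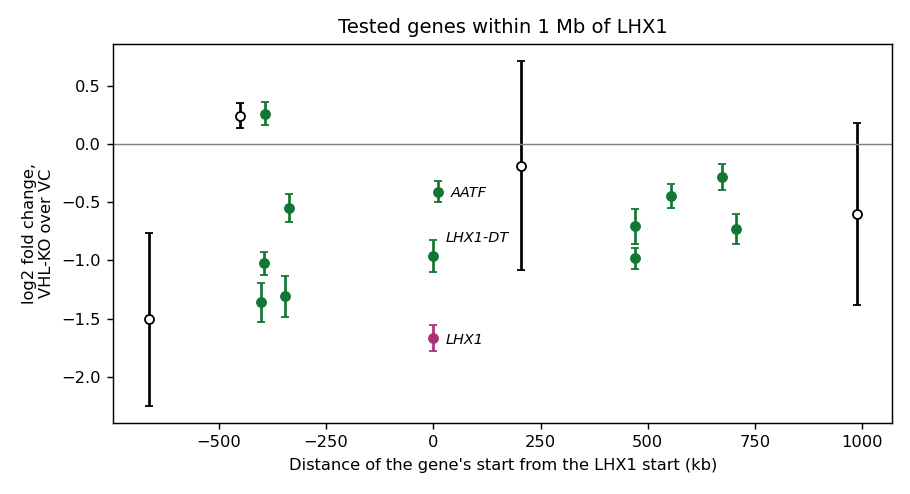
Log2 fold change (vertical axis, VHL-KO over VC, with 1 standard error) against the distance in kb of each gene's start from the LHX1 start, for LHX1 and 16 of the other tested genes within 1 Mb. Filled points passed the adjusted p threshold of 0.05 and open points did not. LHX1 has the lowest value, at -1.67, with LHX1-DT at -0.96 and AATF at -0.41 beside it.

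GATA3 (ENSG00000107485.18; GRCh38, plus strand, chr10:8045378-8075198) was the lowest of the 3 transcribed factors. It was read at 8.17, 8.98 and 9.53 CPM in VC and at 10.6, 9.59 and 10.8 CPM in VHL-KO samples. The highest VC value and the lowest VHL-KO value nearly met, and the difference did not pass the test (log2 fold change 0.21 ± 0.151; edgeR, adjusted p = 0.225), with values of 0.02 to 0.33 over the alternatives. GATA3-AS1 had at most 2 reads in a sample, and WT1-AS, EMX2OS and HNF4A-AS1 had none.

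Of the 3 tested factors, 2 thus passed the threshold, beside 59.7% of all tested genes. PAX8 was the 1 that rose, beside 28.5% of all genes, and LHX1 the 1 that fell, beside 31.2%. Scaling moved these values together with those of all genes. Over all tested genes, the median difference on the log2 scale moved by 0.11 with upper quartile factors and by -0.19 with library size alone. Relative to that median, PAX8 stood at 0.53, LHX1 at -1.66 and GATA3 at 0.23 with TMM factors, and at 0.53, -1.66 and 0.22 with library size alone.

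In VC cells, the order of levels per kilobase of exon was PAX8, LHX1, GATA3. PAX8 had 59.7, 62.2 and 52.1 CPM per kilobase in the 3 VC samples and ranked 636 among 19960 protein-coding genes. LHX1 had 11.4, 11.7 and 10.7 CPM per kilobase and ranked 3154, and GATA3 had 2.40, 2.64 and 2.81 and ranked 7119. The VC ranges of neighbors in this order did not overlap. In VHL-KO cells LHX1 had 3.24, 3.79 and 3.58 CPM per kilobase and GATA3 3.11, 2.82 and 3.19, so that the lowest LHX1 value lay just above the highest GATA3 value.

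**Figure D3:**
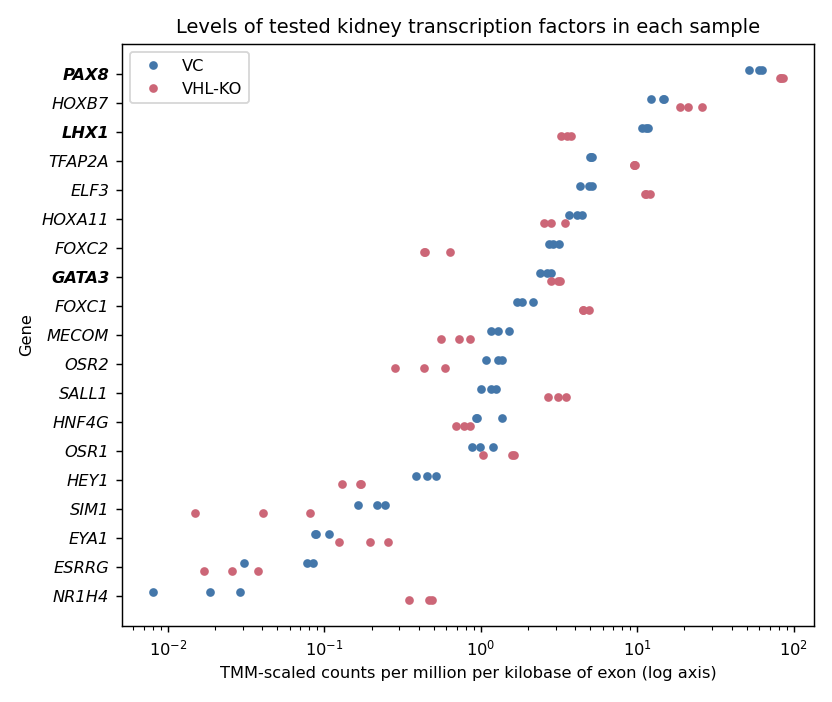
CPM per kilobase of exon (horizontal log axis) in each sample, for the 3 tested members (bold) and 16 other tested kidney transcription factors, ordered by the VC mean. Blue points are VC and red points VHL-KO samples. PAX8 is the highest of the 19 genes drawn in both groups, and LHX1 falls from its VC place to about that of GATA3.

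The genes whose 6 values ran closest to each factor, among 12142 others whose normalized counts averaged 50 or more, were measured by the root mean square distance of centered log2 CPM values over the 6 samples. They were ACSS2 (0.0214) and MARK4 (0.0225) for PAX8, ST3GAL1 (0.0352) and RAD54B (0.0482) for LHX1, and RP1 (0.0342) and ZKSCAN2 (0.0418) for GATA3. The distance takes in the difference between the groups, so the close genes had like log2 fold changes. These were 0.52 and 0.51 for the PAX8 pair, -1.68 and -1.69 for the LHX1 pair and 0.24 and 0.21 for the GATA3 pair. Whether any of these genes are regulated together was not tested.

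Of 25 paralogs of the 7 factors, 15 had fewer than 10 reads in every sample, 7 of them none, 10 were tested, 1 rose, 2 fell and 7 did not pass, where 28.5% of all tested genes rose and 31.2% fell. Their median log2 fold change was -0.66, and it ran from -0.86 to -0.15 over the alternatives, with -0.25 when VC replicate 3 was left out. With library size alone 5 fell (6740 of all 17401 tested genes), and with offsets for GC content and length 1 fell (5178 of all). PAX3, a paired-box factor of neural crest and muscle precursors, was read at 7.03, 6.49 and 6.74 CPM in VC and at 3.44, 3.34 and 3.19 CPM in VHL-KO samples. It fell 2.03-fold (edgeR, adjusted p = 3e-05) without overlap of the groups, as in 64.7% of all tested genes. EGR1, an immediate early zinc finger factor of the WT1 family, rose 1.81-fold (edgeR, adjusted p = 2.03e-06). HNF4G, the paralog of HNF4A, was read at 4.48, 4.51 and 6.53 CPM in VC and at 4.08, 3.75 and 3.33 CPM in VHL-KO samples, a log2 fold change of -0.48 ± 0.202 (edgeR, adjusted p = 0.0459) that became 0.15 with offsets for GC content and length (adjusted p = 0.441, in a range of 0.00857 to 0.441 over 14 alternatives). The HNF4G call held in 4 of these 14 and was lost on leaving out VC replicate 3 (-0.25) or any VHL-KO replicate (-0.54, -0.48 and -0.40 for 1, 2 and 3). GATA6 had 20.2, 21.2 and 20.5 CPM in VC and 20.2, 21.2 and 25.7 CPM in VHL-KO samples, and did not pass. PAX6, PAX9, LHX4, LHX6, EGR2 and EGR3 were tested and did not pass, though PAX6 and PAX9 each passed in 2 alternatives and LHX4 and EGR2 in 1.

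Of 38 other kidney transcription factors, 18 were tested, and 8 rose, 8 fell and 2 did not pass, that is 88.9% past the threshold against 59.7% of all tested genes. HNF4G and GATA2 are also among the 25 paralogs, and HNF4G is 1 of the 8 that fell. With the replicate block 7 of the list fell, and HNF4G did not pass (edgeR, adjusted p = 0.0547). The median log2 fold change of the 18 was -0.27 and ran from -0.47 with library size alone to 0.019 with offsets for GC content and length. HOXB7 and TFAP2A were among the highest in VC cells, at 13.9 and 5.06 CPM per kilobase. FOXC2, a forkhead factor of early kidney mesenchyme, was read at 9.10, 8.41 and 7.95 CPM in VC and at 1.27, 1.25 and 1.83 CPM in VHL-KO samples, a 5.87-fold fall. OSR2 fell 2.82-fold. In the other direction SALL1, a zinc finger factor of nephron progenitors, went from 6.32, 7.33 and 7.92 CPM in VC to 17.0, 19.7 and 22.2 CPM in VHL-KO samples. FOXC1, the close relative of FOXC2, rose 2.44-fold while FOXC2 fell. Adjusted p was 1.82e-10 for FOXC2, 9.78e-09 for SALL1 and 3.57e-08 for FOXC1 (edgeR, Benjamini-Hochberg). None of the 3 pairs of groups overlapped, which the rule for naming these genes required.

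**Figure D4:**
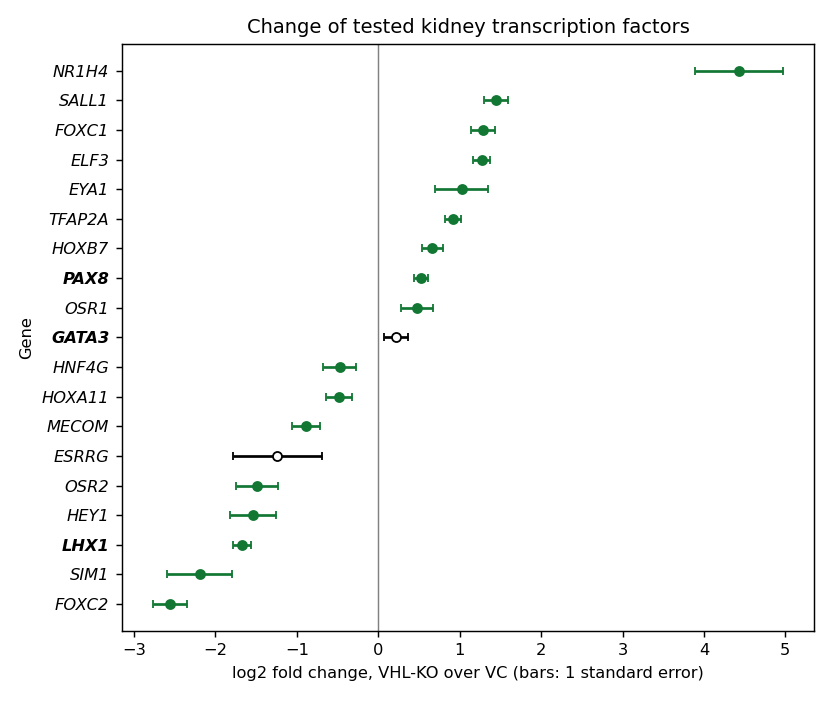
Log2 fold change (horizontal axis, VHL-KO over VC, with 1 standard error) of the 3 tested members (bold) and 16 other tested kidney transcription factors. Filled points passed the adjusted p threshold of 0.05 and open points did not. FOXC2 is the lowest at -2.55, LHX1 stands at -1.67, PAX8 at 0.52 and GATA3 at 0.21.

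The gene groups that mark the segments in which the 7 factors act were read next. Of 13 genes known as HNF4A targets, 12 had fewer than 10 reads in every sample and 8 had none. The exception was SERPINA1, with 52.7, 58.1 and 50.3 CPM in VC and 22.9, 20.8 and 22.3 CPM in VHL-KO samples, a fall of 2.44-fold (edgeR, adjusted p = 3.21e-10). Of 28 proximal tubule genes, 13 were tested, of which 6 rose, 3 fell and 4 did not pass (69.2% past the threshold, against 59.7% of all tested genes). The median log2 fold change was 0.31, with 0.12 by library size alone and 0.56 without VC replicate 3. With library size alone, or with offsets for GC content and length, 3 rose. ANPEP, a brush border peptidase, was the highest of them, at 62.2 CPM per kilobase in VC cells, and the peptidase DPP4 rose 5.25-fold from 28.9, 25.5 and 30.1 CPM in VC to 143, 157 and 144 CPM in VHL-KO samples. The 3 that fell were the phosphate transporter family genes SLC17A1 (34, 30 and 35 against 2, 0 and 0 reads; edgeR, adjusted p = 5.54e-06) and SLC17A3 (4.15-fold, 5.08e-05) and the endocytic adaptor DAB2 (1.42-fold, 0.00224), whose call was lost with offsets for GC content and length (-0.22, adjusted p = 0.0579).

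Of 11 podocyte genes, 6 were tested, with 2 rising, 2 falling and 2 not passing (66.7% past the threshold, against 59.7% of all tested genes). Their median log2 fold change was -0.09 and took either sign in the alternatives, from -0.44 with 10 reads in every sample to 0.25 with genes of at least 1 read included, and from -0.20 to 0.030 on leaving out 1 sample. With either library size alone or the GC and length offsets, 1 rose. KIRREL1, a slit diaphragm adhesion protein also found outside podocytes, fell 1.81-fold from 438, 451 and 453 CPM to 239, 225 and 277 CPM, and the adaptor CD2AP also fell (log2 fold change -0.92 ± 0.167, and -0.31 with offsets for GC content and length; edgeR, adjusted p = 4.14e-05 and 0.026). PLA2R1, a podocyte surface receptor, rose 1.70-fold (log2 fold change 0.77, and 1.24 with those offsets; edgeR, adjusted p = 0.000116 and 6.27e-08), and SYNPO, an actin-associated protein, rose 1.26-fold (0.0059), a call lost with library size alone (adjusted p = 0.206) and with the offsets (0.131). Of 21 distal tubule and collecting duct genes, 7 were tested, of which 6 rose and 1, EPCAM, fell, beside 28.5% and 31.2% of all tested genes (median log2 fold change 1.95). The other 14 had fewer than 10 reads in every sample, 9 of them none. Among the 6 that rose, SLC12A3 had only 3, 5 and 1 reads in VC against 12, 8 and 12 in VHL-KO samples. AQP3 had 14, 6 and 10 against 18, 27 and 27 reads. CDH16, the kidney-specific cadherin, had 218, 234 and 228 reads in VC and 1888, 1600 and 1530 reads in VHL-KO samples, a 10.7-fold rise, and MUC1 rose 14.8-fold. The groups of samples did not overlap for these 2 genes, which the rule for naming them required. AQP2 and UMOD, which define principal cells and the thick ascending limb, had no read.

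Of 17 genes of ureteric bud signaling, 8 were tested, with 1 rising, 5 falling and 2 not passing, beside 28.5% rising and 31.2% falling of all tested genes (median log2 fold change -0.60). GFRA1, the co-receptor for the ligand GDNF, went from 255, 263 and 264 CPM in VC to 123, 118 and 131 CPM in VHL-KO samples, while its receptor tyrosine kinase partner RET had at most 2 reads in a sample. WNT7B, a ligand of the ureteric epithelium, fell 1.71-fold. SPRY1, an inhibitor of receptor tyrosine kinase signaling, rose 7.82-fold from 0.966, 1.21 and 1.24 CPM to 9.50, 9.40 and 7.88 CPM. Of the 6 epithelial markers, the keratins KRT7, KRT8, KRT18 and KRT19 rose, EPCAM fell and CDH1 was not tested. Only 2 rose by library size alone and 1 after the correction for GC content and length, and the KRT19 call held in 4 of 14 alternatives. Of the 2 genes counted as mesenchymal markers, CDH2 fell 1.37-fold, a call lost with that correction (edgeR, adjusted p = 0.34), and VIM did not pass (log2 fold change -0.07 ± 0.0818).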

How the data were processed

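The values deposited by the authors are raw read counts per gene in 6 samples. Per the study's methods, Trim Galore and cutadapt trimmed the reads, STAR placed those with a length of 20 nt or more on GRCh38.p13, SAMtools kept the uniquely mapped ones, and HTSeq counted them per gene. Versions, annotation release and strandedness are not given in the sources used here. Genes reaching 10 reads in any sample were tested with edgeR 4.0.16 (R 4.3.3) with TMM factors, a quasi-likelihood F test and Benjamini-Hochberg adjustment over all tested genes, at 0.05. Standard errors were derived from the F statistic. The procedure was tested on simulated data. Depth ran from 22628246 to 34881739 counts per sample. Gene positions and exon lengths came from GENCODE 44, and tables were drawn up with Python 3.11.15 and matplotlib 3.10.9. Alternatives were DESeq2 1.42.0, other scaling factors and read minimums, a replicate block, GC and length offsets, and leaving out each sample. Replicate numbers were not treated as pairs.

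The members and gene lists were chosen with earlier results of these data known. Named genes were all members, their antisense or divergent partners, every paralog with 10 reads in any sample, VHL and the hypoxia genes, the nearest tested protein-coding neighbors, the 2 most alike genes of each tested member, and in each other list the 5 largest changes past the threshold (mean of at least 50 normalized counts, groups not overlapping) and the 3 highest per kilobase in VC. Genes that define a cell type and were at or near 0 reads (CDH1, CD3E, LUM, AQP2, UMOD, RET), and SLC17A1, SLC17A3, SLC12A3, AQP3, EPCAM and KRT19, were named after their values were seen. Some genes that the rule names are not reported here.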

Additional observations from a re-analysis of the deposited data

How the results depend on the processing

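PAX8, LHX1 and GATA3 kept their direction and their side of the threshold in all 14 alternatives (0.33 to 0.63, -1.86 to -1.56 and 0.02 to 0.33 on the log2 scale), as did the order of their VC levels in all 5 run. The adjusted p (edgeR, or DESeq2 in 1 alternative) ran from 8.93e-09 to 0.00104 for PAX8, from 3.87e-46 to 2.87e-09 for LHX1 and from 0.0619 to 0.915 for GATA3. Over all genes, 10394 passed, and 9215 to 10503 in the alternatives. The share of higher calls moved from 47.7% to 35.8% with library size alone and to 55.0% with upper quartile factors. Upper quartile factors gave 5712 genes rising and 4668 falling. Library size alone gave 3763 and 6740, and GC and length offsets 5246 and 5178. The VHL call held in 10 of 14. Of 481 values of the members, their order, the total of calls and the counts and medians of the lists, 422 were counted as unchanged, 57 as moved and 2 as changed in sign. The podocyte median of 0.030, on leaving out 1 sample, was counted among the 422 although its sign changed. Of 787 further values of other named genes, levels and calls by direction or size, 737 kept their direction and side, 35 no longer passed, 6 passed newly, 5 changed sign and 4 moved by more than the spread. List medians are given for lists of at least 5 tested genes. With library size alone GATA6 turned to -0.078 and PAX8-AS1 to -0.14, the medians became -0.47 (other kidney factors), -0.86 (paralogs), -0.79 (ureteric signaling), 0.18 (epithelial and mesenchymal markers, called epithelial below) and 2.03 (hypoxia genes), 5 paralogs fell, and 3 proximal tubule, 1 podocyte and 2 epithelial genes rose. With GC and length offsets HNF4G turned to 0.15, the medians became 0.019 (other kidney factors, a change of sign), -0.24 (paralogs), 1.59 (distal and collecting duct) and 0.10 (epithelial), 3 proximal tubule, 1 podocyte and 1 epithelial gene rose, and 1 paralog and 1 epithelial gene fell. Upper quartile factors gave medians of -0.16 (other kidney factors), 0.48 (epithelial) and 2.34 (hypoxia), with 1 paralog falling. A minimum of 1 read in any sample gave -0.17 (other kidney factors), -0.43 (paralogs), 0.25 (podocyte, a change of sign), 1.53 (distal), -0.81 (ureteric), 0.11 (epithelial) and 2.18 (hypoxia). A minimum of 10 reads in every sample gave -0.039 (other kidney factors), -0.15 (paralogs), -0.44 (podocyte), 2.72 (distal), 0.47 (epithelial) and 1.99 (hypoxia), with 1 paralog, 1 proximal tubule, 1 epithelial and 0 distal genes falling and 0 markers of other cell types rising; fewer genes were then tested. DESeq2 and relative log expression factors each gave 2.25 (hypoxia) with 1 paralog falling. Leaving out 1 sample at a time moved PAX8-AS1 between -0.0996 and 0.18, below 0 without VC replicate 1 or VHL-KO replicate 1, and the medians between -0.27 and -0.18 (other kidney factors), -0.70 and -0.25 (paralogs), 0.32 and 0.56 (proximal tubule), -0.20 and 0.030 (podocyte, a change of sign), 0.30 and 0.50 (epithelial) and 2.15 and 2.34 (hypoxia), with 1 to 2 paralogs falling, 1 to 2 rising and 0 to 1 markers of other cell types rising. The replicate block called 10284 genes and 1 falling paralog, with PAX8 at 0.53, LHX1 at -1.67 and GATA3 at 0.22; same-numbered samples correlated at 0.151, -0.0897 and 0.0550 across 12115 genes, and 3 of 6 samples correlated best with their own number, so the numbers were not taken as pairs. The cause of these changes was otherwise not tested. Depth limits PAX2, WT1 and EMX2 to the floor of 3 counts in each sample.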
